A study of Mus musculus with 20 samples.

Results

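The 10 genes described here carry the insulin signal from the receptor at the cell surface to the glucose transporter Glut4, and they were taken by name from the 14776 genes of the deposited expression table, which held all 10. They are Insr, Irs1, Irs2, Pik3r1, Akt2, Slc2a4 (which encodes Glut4), Tbc1d4, Foxo1, Grb10 and Trib1. Their messenger RNA was measured in eWAT, the white fat depot beside the epididymis, of 20 mice (male, C57BL/6J) that entered the study at 6 weeks of age. The 6 NC mice ate maintenance feed. The 7 HFD mice ate a feed with 60% of its energy from fat for 20 weeks and received saline into the stomach for the last 6 weeks. The 7 SZ-A mice ate the same high-fat feed for the same time and received Ramulus Mori (Sangzhi) alkaloids, an extract of mulberry twig, by the same route at 400 mg/kg each day for those 6 weeks. By the study's methods, the mice were fasted overnight before the tissue was taken, so the levels are those of fasted mice. The labels name no transgene, deletion or pooling of mice, and each library was taken as 1 mouse. The labels list 6 NC libraries, while the study's methods describe equal groups.

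In fat cells, insulin binds its receptor, which phosphorylates adaptor proteins of the Irs family. These recruit phosphoinositide 3-kinase (PI3K), whose lipid product brings Akt kinases to the membrane, and Akt2 then inactivates the Rab GTPase-activating protein encoded by Tbc1d4, so that storage vesicles deliver Glut4 to the cell surface and glucose enters. Much of this control acts on phosphorylation and on vesicle position, which messenger RNA levels do not show.

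Positions are those of GRCm38. Insr (chromosome 8, 3122061 to 3279617, minus strand) encodes the insulin receptor. Irs1 (chromosome 1, 82233101 to 82291416, minus strand) and Irs2 (chromosome 8, 10984681 to 11008458, minus strand) encode its main adaptors. Pik3r1 (chromosome 13, 101680563 to 101768217, minus strand) encodes the p85-alpha regulatory subunit of PI3K, and Akt2 (chromosome 7, 27591552 to 27640826, plus strand) the Akt kinase most tied to glucose uptake. Slc2a4 spans chromosome 11, 69942539 to 69948188, on the minus strand, and Tbc1d4, the Akt substrate AS160, spans chromosome 14, 101442360 to 101609191, on the minus strand. Foxo1 (chromosome 3, 52268336 to 52353221, plus strand) encodes a transcription factor that Akt keeps out of the nucleus. Grb10 (chromosome 11, 11930508 to 12038683, minus strand) encodes an adaptor that restrains the receptor, and Trib1 (chromosome 15, 59648350 to 59657099, plus strand) a pseudokinase that promotes protein degradation and belongs to a family whose members can bind Akt. The values cover the exons of each gene, and no other gene of the table had exons that overlap with them.

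The start regions of the adaptor genes are shown because these 2 members share a sequence feature that the windows of the other matched members lacked. RefSeq start regions of 300 bases (250 before and 50 after the start, build GRCm38.p6) were matched for 7 of the 10 members, in 12 windows. The E-box CACGTG, which reads the same on both strands, was found in the windows of Irs1 and Irs2, 2 of the 12, against 7.15% of all 32851 windows. In the sequences, each 5′ to 3′ on the strand of the gene, capitals mark the E-box, the GC box (GGGCGG) and the CCAAT box (CCAAT, or ATTGG on the other strand).
Irs1, chr1:82291390-82291689, minus strand: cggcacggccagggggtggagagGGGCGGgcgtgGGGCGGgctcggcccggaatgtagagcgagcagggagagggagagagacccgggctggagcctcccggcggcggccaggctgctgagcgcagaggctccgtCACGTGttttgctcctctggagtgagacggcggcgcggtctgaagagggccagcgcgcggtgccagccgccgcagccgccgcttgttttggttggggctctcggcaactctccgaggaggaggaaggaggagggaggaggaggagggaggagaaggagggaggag
Irs2, chr8:11008880-11009179, minus strand: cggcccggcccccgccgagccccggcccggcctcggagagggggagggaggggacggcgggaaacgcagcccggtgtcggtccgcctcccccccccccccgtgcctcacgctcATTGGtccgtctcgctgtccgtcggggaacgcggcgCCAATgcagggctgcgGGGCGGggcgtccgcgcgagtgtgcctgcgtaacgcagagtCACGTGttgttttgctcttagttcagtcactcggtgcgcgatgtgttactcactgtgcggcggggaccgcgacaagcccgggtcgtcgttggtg
The Irs1 window held 2 GC boxes and the Irs2 window 1, with 2 CCAAT boxes in the latter. A GC box (GGGCGG or CCGCCC) stood in 7 of the 12 windows of the members and in 35.7% of all windows, and a CCAAT box in 4 of the 12 and in 37.4%. A TATA box (TATAAA or TTTATA) was in 1 of the 12 and in 13.6% of all windows. The core site of Foxo factors (TGTTTAC or GTAAACA) was in 0 of the 12 windows and in 3.65% of all windows. These are matches of letters in a short window, and no binding was measured.

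Expression is given as FPKM, fragments scaled to exon length and to library size, which allows levels to be compared between genes. Between 13567667 and 19388628 reads per mouse fell on the genes of the table. The lowest member value rested on 22 reads (Irs1) and the highest on 10761 (Akt2). Because eWAT holds many cell types, a lower value in a bulk sample can mean fewer cells of a type or less RNA per cell, which cannot be told apart here. Markers of fat cells were present in every library, but NC replicate 6 stood apart from its tissue label. Its 17 adipocyte markers summed to 699 FPKM, against a group median of 20000. It had Adipoq (adiponectin) at 26.6 FPKM, where the other NC mice had 859 to 2280, and it had Krt18, an epithelial keratin, at 452 and Lcn2, a lipocalin abundant in the epididymis, at 2430 FPKM. Krt18 and Lcn2 were the only 2 of 28 listed epididymis markers in the table. Krt18 was also 454, 150, 56 and 53.7 FPKM in NC replicates 1, 2, 4 and 5 and 5.85 in NC replicate 3, so that every NC mouse was above every HFD mouse. Lcn2 was 2.92 to 31.8 FPKM in these NC mice. In SZ-A replicates 2, 3 and 7, Krt18 stood at 119, 30 and 168 FPKM and Lcn2 at 272, 32.9 and 32, while no HFD mouse had over 3.23 FPKM of Krt18 or 2.95 of Lcn2. With the score of these 2 markers as covariate, the log2 fold change of Insr in SZ-A against HFD was 0.60 (limma adjusted p = 0.0219), against 0.55 without it. In HFD against NC, more members were called lower with that score than without it, as counted in the closing section. The score did not overlap between these groups, so that fit cannot separate it from the diet. The changes of the members and the counts of pathway genes in HFD against NC are given with and without NC replicate 6, except in fits with a covariate, which kept it.

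Marker levels also differed between the groups. The summed level of 18 macrophage markers ranged from 245 to 910 FPKM among NC, from 4140 to 11100 among HFD and from 1690 to 5560 among SZ-A mice. The summed level of the 17 adipocyte markers had medians of 20000 among NC, 8680 among HFD and 11600 among SZ-A mice, with ranges of 699 to 31000, 5360 to 11400 and 7490 to 23100. Abundant genes weigh most in such a sum, and the marker Cfd alone had means of 6850, 234 and 1540 FPKM. The mean of log2(FPKM + 1) over the 17 markers differed less, at 8.1 among NC (NC replicate 6 included), 7.78 among HFD and 8.66 among SZ-A mice. Of the macrophage markers, 17 of 18 rose in HFD against NC and 16 of 18 fell in SZ-A against HFD, while 3 of 17 adipocyte markers fell and 1 rose in the former comparison and 3 of 17 rose in the latter. Without NC replicate 6, 10 of 17 adipocyte markers fell and 2 rose in HFD against NC (median log2 fold change -0.99), and 16 of 18 macrophage markers rose. Of 10 progenitor markers, 7 rose and 1 fell in HFD against NC and 8 fell in SZ-A against HFD. The 7 endothelial markers summed to 9.81 to 514 FPKM among NC, 84.7 to 413 among HFD and 191 to 766 among SZ-A mice, and the 8 T and B cell markers in the table to 1.51 to 16.4, 7.16 to 23.9 and 4.83 to 17 FPKM. Of the short lists, 5 skeletal muscle markers summed to at most 144, 4 brown and beige markers to at most 27.4 and 2 mesothelial markers to at most 267 FPKM in any mouse.

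Of the 10 members, 1 changed between HFD and NC mice, and it was the insulin receptor. HFD mice had less Insr than NC mice, and SZ-A mice had more of it than HFD mice. Called means here an adjusted p under 0.05 by limma over all genes tested. By that rule 41.1% of all 14706 genes tested were called in HFD against NC, and 22.8% of 14695 in SZ-A against HFD, so that 1 of 10 members, 10%, is a smaller share than that of all genes in each case. By direction, 20.1% of all genes fell in HFD against NC and 9.47% rose in SZ-A against HFD. None of the 10 passed the study's stricter rule, which by its methods also asks for a log2 fold change past 1.5 and which 7.97% and 0.864% of all genes passed (1.79% in SZ-A against NC). Elsewhere the study words the limit as a fold change, and read so, Insr in HFD against NC (fold 0.483 of FPKM + 1) would pass it. In SZ-A against HFD the fold of Insr was 1.47 on FPKM + 1, where the added 1 makes it smaller than in FPKM. The means were 10.1 FPKM in SZ-A and 6.56 in HFD mice, so whether Insr passes that reading depends on the scale. Between SZ-A and NC mice, 0 members were called at an adjusted p under 0.05 by limma, 0 at an unadjusted p under 0.05 (the lowest was 0.053, for Insr) and 0 by voom on the recovered reads, while 4.61% of all genes were called. For every member the groups overlapped in each comparison, whereas they did not overlap for 20.5%, 6.08% and 3.57% of all genes.

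**Figure D1:**
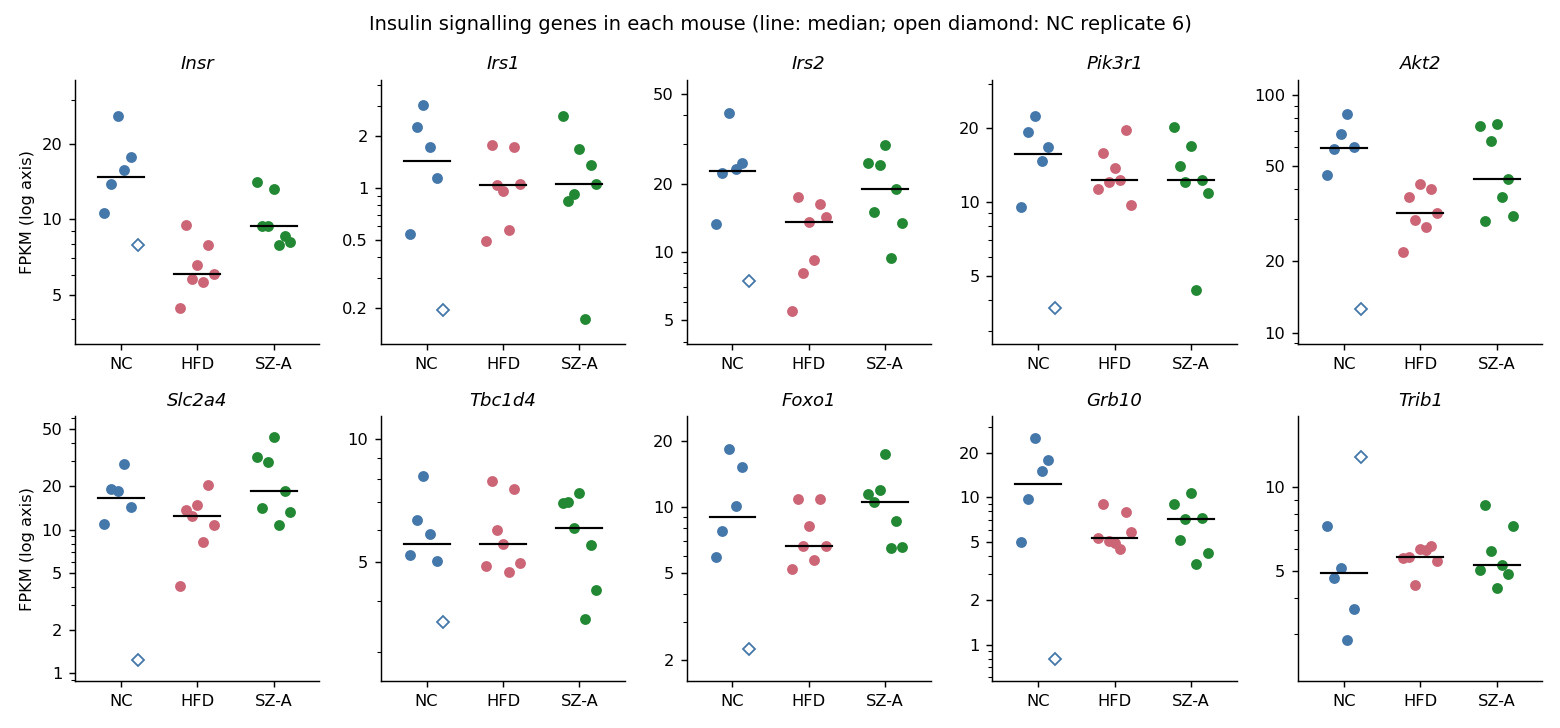
FPKM of the 10 members in each mouse on a logarithmic axis with a range of its own in each panel, with 6 NC, 7 HFD and 7 SZ-A mice as points, the median of a group as a line and NC replicate 6 as an open diamond. Insr sits between 4.43 and 9.52 FPKM in HFD mice and between 7.88 and 14.1 in SZ-A mice, and NC replicate 6 is the lowest NC mouse in each panel except that of Trib1.

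Insr had a lowest value of 7.87, a median of 14.8 and a highest value of 25.9 FPKM in NC mice. In HFD mice these were 4.43, 6.03 and 9.52 FPKM. In SZ-A mice they were 7.88, 9.38 and 14.1 FPKM. The HFD mice lay at the bottom, and only the 2 highest of them, at 7.91 and 9.52 FPKM, reached the lowest mice of the other groups. Apart from NC replicate 6, every NC mouse was above every HFD mouse. The means were 15.3 ± 6.28 (SD, n = 6), 6.56 ± 1.67 (SD, n = 7) and 10.1 ± 2.50 (SD, n = 7). On the scale of log2(FPKM + 1), Insr fell in HFD against NC with a log2 fold change of -1.05 (SE 0.23, limma adjusted p = 0.00277, exact two-sided permutation p = 0.00291). Without NC replicate 6 the log2 fold change was -1.21 (limma adjusted p = 3.57e-04). It rose in SZ-A against HFD with a log2 fold change of 0.55 (SE 0.16, limma adjusted p = 0.0229, exact two-sided permutation p = 0.00699). That call was near the threshold, and the limma adjusted p was 0.0505 without HFD replicate 1 and 0.0507 without HFD replicate 5. It was also lost with all 3 groups in the fit (limma adjusted p = 0.078), with the replicate number as a block (0.0584) and with the adipocyte marker score described below as covariate, where the log2 fold change was 0.22 (0.265). Insr thus moved between groups whose macrophage and adipocyte marker sums also differed, and the part of the macrophage markers in its change was not tested. SZ-A and NC mice differed by -0.50 with a 95% interval of -1.02 to 0.02 (limma adjusted p = 0.269), and by -0.66 (limma adjusted p = 0.0958) without NC replicate 6.

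The adaptors Irs1 and Irs2 were far apart in level. Irs1 had the lowest mean of the 10 members in every group, at 1.49 ± 1.08 FPKM (SD, n = 6) among NC, 1.09 ± 0.508 (SD, n = 7) among HFD and 1.24 ± 0.773 (SD, n = 7) among SZ-A mice. Its range did not overlap with that of the next member by mean in any group. In NC mice, however, Slc2a4, Grb10, Foxo1 and Trib1, with lowest values of 1.24, 0.793, 2.26 and 2.85 FPKM, reached into the range of Irs1. Its values spanned 0.195 to 3.05 FPKM among NC, 0.49 to 1.79 among HFD and 0.173 to 2.63 among SZ-A mice, and neither comparison passed the test (log2 fold changes of -0.17 for HFD against NC and 0.06 for SZ-A against HFD, limma adjusted p = 0.647 and 0.86). The former was -0.35 (limma adjusted p = 0.231) without NC replicate 6. At these low levels the added 1 FPKM makes a fold change smaller than it is in FPKM. Irs2, the more abundant adaptor, had lowest, median and highest values of 7.44, 22.7 and 41.1 FPKM among NC, 5.45, 13.5 and 17.5 among HFD and 9.34, 19.0 and 29.7 among SZ-A mice. Every HFD mouse was below the NC median of Irs2 and below the SZ-A median. The log2 fold change of Irs2 was -0.74 (SE 0.35, limma adjusted p = 0.105) in HFD against NC and 0.64 (SE 0.27, limma adjusted p = 0.10) in SZ-A against HFD, and neither passed the test. Without NC replicate 6, Irs2 fell in HFD mice with a log2 fold change of -0.99 (limma adjusted p = 0.0143). Without SZ-A replicate 5, it rose in SZ-A against HFD with 0.79 (limma adjusted p = 0.0321).

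Akt2 was the most abundant member in all 3 groups. Its lowest, median and highest values were 12.5, 59.7 and 82.5 FPKM among NC, 21.8, 31.9 and 42.0 among HFD and 29.4, 44.4 and 75.6 among SZ-A mice. Apart from NC replicate 6, every NC mouse had at least 46 FPKM of Akt2, above the highest HFD mouse. With all mice the log2 fold change in HFD against NC was -0.55 (SE 0.35, limma adjusted p = 0.223), and without NC replicate 6 Akt2 fell with a log2 fold change of -0.92 (limma adjusted p = 0.00106). SZ-A mice differed from HFD mice in Akt2 by a log2 fold change of 0.54 (SE 0.23, limma adjusted p = 0.0999). The SZ-A mice split widely in this gene, with 3 of 7 at 63.6 FPKM or more and 3 of 7 at 37.1 FPKM or less, and Akt2 passed the test without SZ-A replicate 2, with 0.66 (limma adjusted p = 0.0429). Pik3r1, the regulatory PI3K subunit upstream of Akt2, had group means close to each other, at 14.4 ± 6.79 FPKM (SD, n = 6) among NC, 13.5 ± 3.34 (SD, n = 7) among HFD and 13.0 ± 4.92 (SD, n = 7) among SZ-A mice. The 95% interval of its log2 fold change was -0.64 to 0.76 in HFD against NC, -0.70 to 0.20 without NC replicate 6, where the estimate turned from 0.06 to -0.25, and -0.66 to 0.40 in SZ-A against HFD.

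Slc2a4, the transporter gene itself, had its highest mean in SZ-A mice. The lowest, median and highest values were 1.24, 16.5 and 28.8 FPKM among NC, 4.03, 12.4 and 20.5 among HFD and 10.8, 18.5 and 43.9 among SZ-A mice. In 3 of 7 SZ-A mice Slc2a4 was above the highest NC mouse, and the other SZ-A mice lay within the range of the HFD group. The means were 15.5 ± 9.22 (SD, n = 6), 12.1 ± 5.21 (SD, n = 7) and 23.2 ± 12.3 (SD, n = 7). The log2 fold change of Slc2a4 in SZ-A against HFD, 0.85 (SE 0.34), was the largest of the 10 members, with an unadjusted p of 0.0235 (limma), an exact two-sided permutation p of 0.0425 and a limma adjusted p of 0.0811, so it did not pass the test over all genes. Without SZ-A replicate 5, the library with the largest share of mitochondrial reads (11.6% against 1.67% in the lowest library), it passed with 0.997 (limma adjusted p = 0.0377). It also passed without HFD replicate 6, with 0.99 (limma adjusted p = 0.0498). In HFD against NC the log2 fold change of Slc2a4 was -0.12 (limma adjusted p = 0.877) with all mice and -0.62 (limma adjusted p = 0.125) without NC replicate 6. Tbc1d4, the Akt substrate that holds Glut4 vesicles back, also had close means, at 5.68 ± 1.53 FPKM (SD, n = 6) among NC, 5.93 ± 1.31 (SD, n = 7) among HFD and 5.83 ± 1.46 (SD, n = 7) among SZ-A mice. Its log2 fold change had a 95% interval of -0.30 to 0.43 in HFD against NC, of -0.37 to 0.29 without NC replicate 6 and of -0.37 to 0.31 in SZ-A against HFD.

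Foxo1 had lowest, median and highest values of 2.26, 8.95 and 18.4 FPKM among NC, 5.19, 6.65 and 10.9 among HFD and 6.47, 10.5 and 17.4 among SZ-A mice. The groups overlapped over most of their range, and the log2 fold change of Foxo1 was -0.15 (limma adjusted p = 0.768) in HFD against NC, -0.45 (limma adjusted p = 0.174) without NC replicate 6, and 0.36 (limma adjusted p = 0.222) in SZ-A against HFD. Grb10, the brake on the receptor, was the member with the widest spread among NC mice (SD 1.41 on the log2 scale), from 0.793 in NC replicate 6 to 25.2 FPKM, with a median of 12.4. It spanned 4.47 to 8.94 FPKM among HFD and 3.54 to 10.7 among SZ-A mice, around medians of 5.26 and 7.07. The log2 fold change of Grb10 in HFD against NC was -0.52 (limma adjusted p = 0.426) with all mice, and Grb10 fell by 1.01 on the log2 scale (limma adjusted p = 0.0156) without NC replicate 6. Against HFD, SZ-A mice differed by 0.09 (95% interval -0.37 to 0.54). Trib1 had the smallest spread of the members in HFD mice (coefficient of variation 9.89%), between 4.48 and 6.13 FPKM around a median of 5.62. It spanned 2.85 to 12.7 FPKM in NC and 4.37 to 8.63 in SZ-A mice, with log2 fold changes of 0.03 and 0.04 (limma adjusted p = 0.935 and 0.823) in HFD against NC and SZ-A against HFD. The former was 0.25 (limma adjusted p = 0.232) without NC replicate 6.

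Without NC replicate 6, then, 4 of the 10 members fell in HFD against NC, namely Insr, Irs2, Akt2 and Grb10, while 45.2% of all genes were called. The median log2 fold change of the members moved from -0.16 to -0.54 when that library was left out, and that of all genes tested was -0.04 both times. Between SZ-A and NC mice without it, 0 members were called by limma and 0 by voom, 2 had an unadjusted p under 0.05, and 5.5% of all genes were called. The log2 fold changes of the members then ran from -0.92 (Grb10) to 0.29 (Trib1), and with all mice from -0.50 (Insr) to 0.73 (Slc2a4). The median of the members in SZ-A against HFD, which does not involve NC mice, was 0.22, and that of all genes was 0.03.

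The members also differed in how closely they followed the adipocyte markers. Akt2 and Slc2a4 followed the adipocyte marker score, the mean of log2(FPKM + 1) over the 17 adipocyte markers, in each group, as did Insr and Irs2 with a lower r. For Akt2, Pearson's r was 0.996 in NC (n = 6), 0.951 in HFD (n = 7) and 0.997 in SZ-A mice (n = 7), with exact permutation p-values of 0.00139, 9.92e-04 and 3.97e-04 and Spearman's rho of 1, 0.964 and 0.964 (exact p = 0.00278 each). Without the 2 mice farthest from the median score, r was 0.897, 0.895 and 0.994. For Slc2a4, r was 0.984, 0.977 and 0.921 (exact permutation p = 0.00694, 5.95e-04 and 0.00913), rho was 0.829, 0.964 and 0.893 (exact p = 0.0583, 0.00278 and 0.0123), and r without the 2 farthest mice was 0.679, 0.905 and 0.819, so that in NC mice the relation leaned on those mice. After adjustment over the 30 relations computed (10 genes in 3 groups), the p-values of r were 0.0104, 0.00992 and 0.00893 for Akt2 and 0.0298, 0.00893 and 0.0298 for Slc2a4. For Insr, r was 0.811, 0.825 and 0.81 (exact permutation p = 0.0222, 0.0212 and 0.025, adjusted 0.0351, 0.0351 and 0.0369), rho was 0.829, 0.893 and 0.786 (exact p = 0.0583, 0.0123 and 0.048), and r without the 2 farthest mice was 0.506, 0.662 and 0.339. For Irs2, r was 0.883, 0.894 and 0.829 (exact permutation p = 0.0125, 0.00754 and 0.0258, adjusted 0.0298, 0.0298 and 0.0369), rho was 0.829, 0.786 and 0.893 (exact p = 0.0583, 0.048 and 0.0123), and r without the 2 farthest mice was 0.493, 0.728 and 0.653. The relations of Insr and Irs2 thus leaned on those mice more than that of Akt2. None of these 4 genes was among the markers. Trib1 went the other way in NC mice, with r = -0.900 (exact permutation p = 0.0111, adjusted 0.0298) and rho = -0.829 (exact p = 0.0583), but r was -0.286 without the 2 farthest mice, so the relation rested on those mice. In SZ-A mice r was -0.774 (exact permutation p = 0.0421, adjusted 0.0574, rho = -0.786, exact p = 0.048), and -0.645 without the 2 farthest mice. In HFD mice r was 0.105 (exact permutation p = 0.814) and rho was 0.607 (exact p = 0.167). Without the 2 farthest HFD mice r was 0.886, so the value in HFD mice also turned on those mice.

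**Figure D2:**
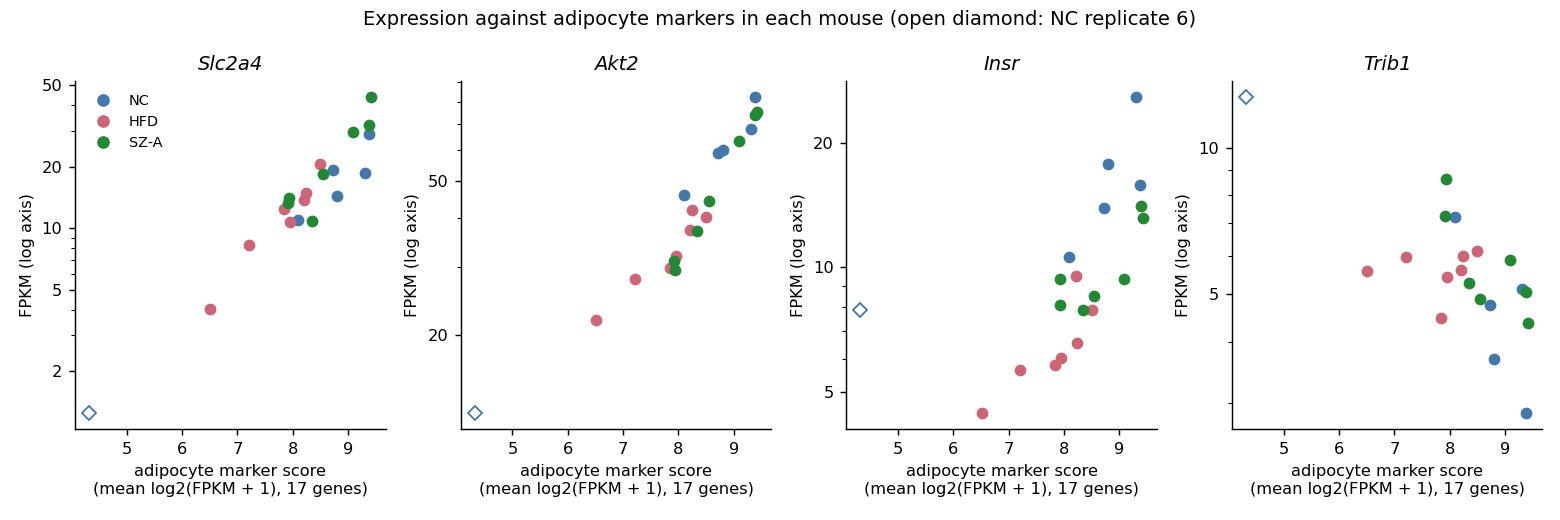
FPKM of Slc2a4, Akt2, Insr and Trib1 (logarithmic axes) against the adipocyte marker score, with each mouse as a point coloured by group and NC replicate 6 as an open diamond. Slc2a4 and Akt2 climb with the score in all 3 groups (r between 0.921 and 0.997). The HFD scores, from 6.51 to 8.497, lie inside the NC range of 4.32 (NC replicate 6) to 9.376. However, 4 of the 6 NC mice lie at 8.722 or more, above all HFD mice.

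With that score as a covariate in the fit, Insr, Irs2 and Akt2 were lower in HFD than in NC mice, with log2 fold changes of -0.97, -0.60 and -0.40 (limma adjusted p = 1.38e-04, 0.0179 and 0.00149), while 54.3% of all genes were called. In SZ-A against HFD, 0 members were called with the covariate by limma (0 at an unadjusted p under 0.05, 0 by voom), and 10.7% of all genes were. The log2 fold change of Slc2a4 went from 0.85 to -0.02, that of Akt2 from 0.54 to -0.03, that of Irs2 from 0.64 to 0.01 and that of Insr from 0.55 to 0.22 (limma adjusted p = 0.265). Insr and Grb10 were lower in SZ-A than NC mice with the covariate, by log2 fold changes of -0.64 and -0.82 (limma adjusted p = 0.0252 and 0.0323), where 8.59% of all genes were called. The score was itself measured in these samples and differs between groups. The covariate fits that involve NC mice kept NC replicate 6, whose score of 4.32 was the lowest of all mice. The next was 6.51, in HFD replicate 1. No fit combined the covariate with leaving that NC library out, so its weight in these values was not tested.

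**Figure D3:**
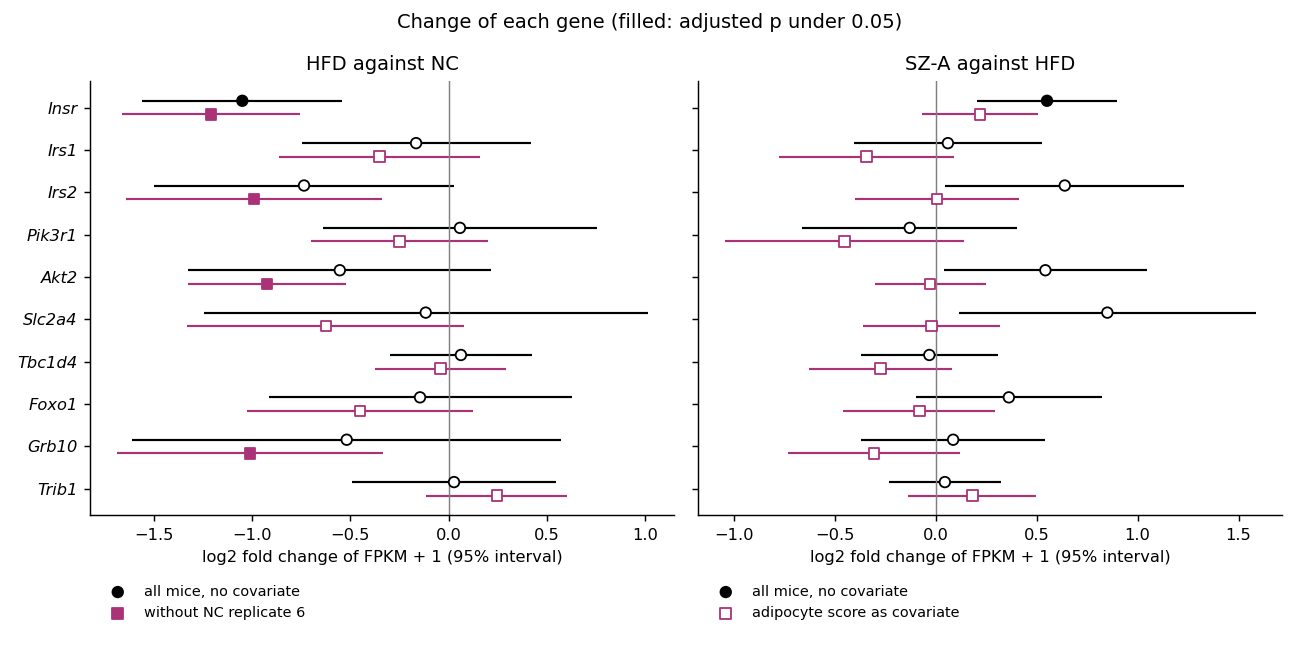
Log2 fold change of FPKM + 1 for each member with its 95% interval, in HFD against NC with all mice (circles) and without NC replicate 6 (squares), and in SZ-A against HFD without a covariate (circles) and with the adipocyte marker score as covariate (squares), filled where the adjusted p is under 0.05. Insr is the only filled circle in either panel, Irs2, Akt2 and Grb10 become filled at left without NC replicate 6, and no square is filled at right.

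Single mice drew many members the same way. NC replicate 6 was the lowest of its group in 9 of 10 members and the highest in Trib1, HFD replicate 1 was the lowest in 6 and SZ-A replicate 5 in 8. NC replicate 3 was the highest of its group in 7 members, HFD replicate 2 in 6 and SZ-A replicate 4 in 6. HFD replicate 1 also had the lowest adipocyte and the highest macrophage marker sum of its group (5360 and 11100 FPKM), and SZ-A replicate 5 had the highest macrophage sum of its group (5560 FPKM). SZ-A replicate 4 had the highest adipocyte sum of its group (23100 FPKM).

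The order of the members by mean level was largely shared. Akt2 was first and Irs1 last in each group, and Irs1 was apart from its neighbour in all 3 groups, as was Akt2 in HFD mice (32.9 FPKM against 13.5 for Pik3r1). Slc2a4 held rank 3 in NC and HFD and rank 2 in SZ-A mice, and Insr held rank 4 in NC and rank 6 in HFD and SZ-A mice. All other neighbours in the order overlapped, so that their places are not separated by these mice. The genes whose log2 values most resembled Slc2a4 after each group's mean was subtracted were Gm454 (r = 0.979), Art3 (0.978), Pxmp4 (0.976), Plin1 (0.971), which coats lipid droplets, and Aldh1l1 (0.971), over 20 mice. Over the same mice without that subtraction they were Smoc1 (0.965), Rtn2 (0.964), Lgals12 (0.963), Aldh1l1 (0.963) and Dab2ip (0.961). These are descriptions over libraries that share the spread in adipocyte markers, and Aldh1l1 is the gene on both lists.

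Around the members, 108 of 116 listed genes of the wider pathway were tested, the members included. In HFD against NC, 27 rose and 13 fell (37.0% called against 41.1% of all genes, median log2 fold change 0.03 against -0.04). In SZ-A against HFD, 10 rose and 18 fell (25.9% against 22.8%), and in SZ-A against NC, 4 rose and 3 fell (6.48% against 4.61%). Without NC replicate 6, 27 rose and 27 fell in HFD against NC, among them 39 of the 40 called with all mice (the exception was Grb14), and in SZ-A against NC 6 of the 7 were still called (the exception was Pik3r3, at -0.62 and a limma adjusted p of 0.0473 with all mice). Of all genes, 45.2% were called in the former comparison without that library and 5.5% in the latter. With the adipocyte marker score as covariate, 2 genes rose and 10 fell in SZ-A against HFD, while 10.7% of all genes were called. Of the 28 called without the covariate, 11 were still called and 17 were not. Among the genes whose change in SZ-A against HFD is named below, those lost were Insr, Pik3r5, Dok2, Grb2, Ptpn1 and Trib2. Akt1, Rps6kb1, Stxbp3, Pck1, Mlxipl and Slc2a12 were lost too. HFD mice enter as the reference of one comparison and as the test group of the other, so the values below are set side by side only.

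The largest rise among the pathway genes in HFD against NC was in the PI3K list. Of its 10 genes, 4 rose and 1 fell in HFD mice (5 and 1 without NC replicate 6). Pik3cd and Pik3cg encode catalytic subunits that are typical of leukocytes, and Pik3r5 and Pik3r6 encode regulatory partners of the Pik3cg product. Pik3r5 spanned 0.371 to 3.85 FPKM among NC, 21.3 to 42.3 among HFD and 5.96 to 34.6 among SZ-A mice. Its log2 fold change was 3.40 (limma adjusted p = 3.13e-07) in HFD against NC and -1.04 (limma adjusted p = 0.0363) in SZ-A against HFD. Pik3cd had means of 1.78 ± 0.957 (SD, n = 6), 11.8 ± 2.73 (SD, n = 7) and 4.92 ± 1.81 FPKM (SD, n = 7), with log2 fold changes of 2.25 and -1.14 (limma adjusted p = 3.40e-06 and 9.78e-04) in the same comparisons. Pik3cg followed the same order, with log2 fold changes of 2.17 and -1.09. Pik3cd, Pik3cg and Pik3r5 exceeded their NC level in SZ-A mice, by 1.11, 1.08 and 2.37 on the log2 scale (limma adjusted p = 0.0165, 0.0024 and 0.00397). These rises stood beside the macrophage marker levels given above, and the part of the latter in the former was not tested. The catalytic subunits that most tissues use, Pik3ca and Pik3cb, had log2 fold changes of 0.03 and 0.34 (limma adjusted p = 0.91 and 0.338) in HFD against NC. Pik3r3, which encodes the p55-gamma regulatory subunit, went the opposite way. It was between 5.2 and 9.98 FPKM among NC, between 1.41 and 2.91 among HFD and between 3.35 and 5.35 among SZ-A mice, so that HFD overlapped with neither group. It fell by 1.27 on the log2 scale in HFD mice (limma adjusted p = 5.78e-05) and rose by 0.65 in SZ-A against HFD (limma adjusted p = 0.00267).

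**Figure D4:**
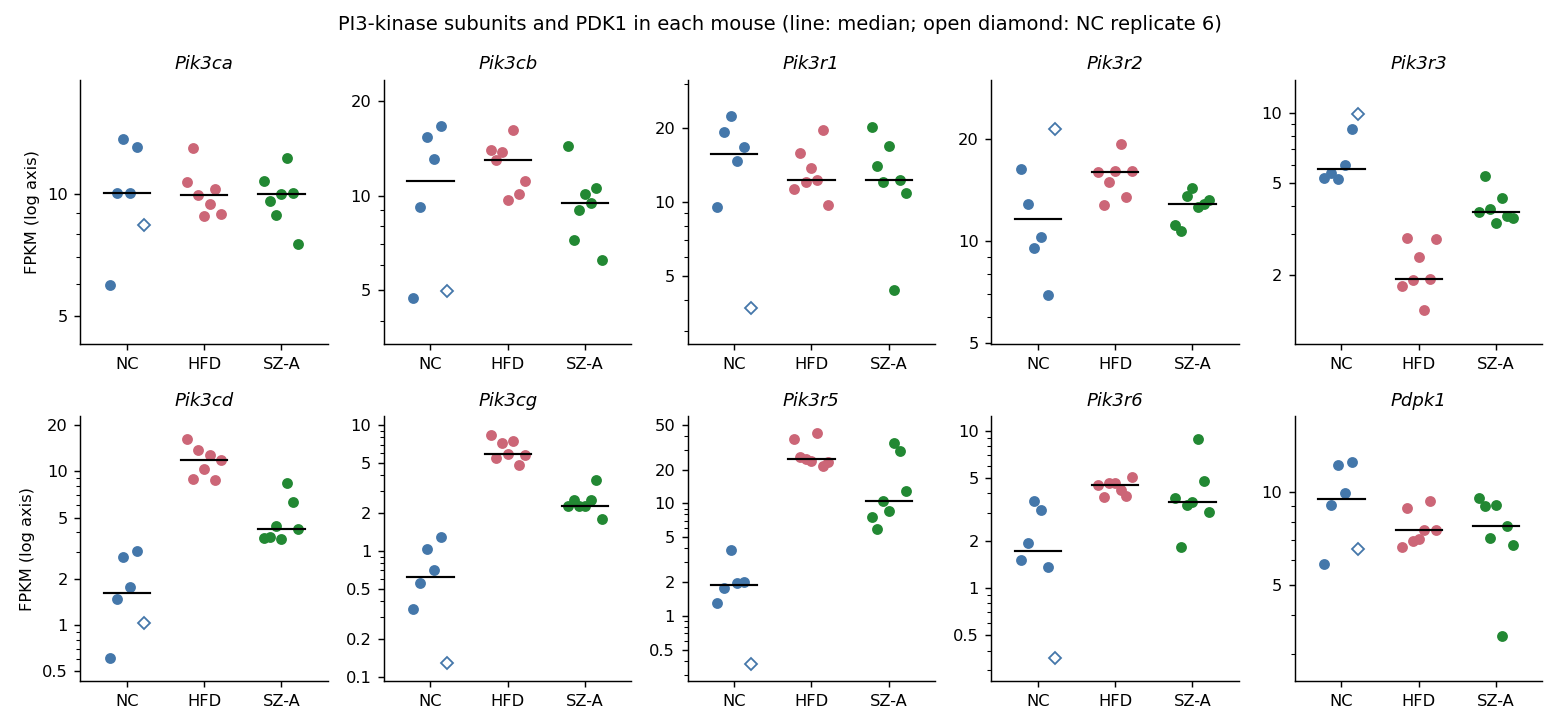
FPKM of 9 PI3K subunits and of Pdpk1, the kinase that phosphorylates Akt, in each mouse on logarithmic axes with a range of their own, with group medians as lines and NC replicate 6 as an open diamond. Pik3cd, Pik3cg and Pik3r5 are lower in every NC than in every HFD mouse (Pik3r5 at most 3.85 FPKM in NC), Pik3r3 is higher in every NC than in every HFD mouse, and Pik3ca, Pik3r1 and Pdpk1 overlap between groups.

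Among receptors and adaptors, 5 of 18 rose and 2 fell in HFD mice (5 and 4 without NC replicate 6). Igf1r, the receptor for insulin-like growth factor, fell beside Insr (log2 fold change -1.06, limma adjusted p = 0.0158), with 17.3 FPKM in NC replicate 6 and 2.58 to 4.15 in the other NC mice. The HFD mice had 1.22 to 2.46 FPKM of Igf1r, below all NC mice, and the log2 fold change was -0.71 (limma adjusted p = 6.76e-04) without NC replicate 6. The largest rises were those of Dok2, an adaptor of blood cells (3.23, limma adjusted p = 3.64e-06), and its relative Dok1 (1.35, limma adjusted p = 0.0271). Dok1 was 37.4 FPKM in NC replicate 6, above every HFD mouse, and 1.81 to 9.47 in the other NC mice, below all of them, and its log2 fold change was 1.77 (limma adjusted p = 2.82e-04) without NC replicate 6. Cbl, a ubiquitin ligase, rose by 1.32 (limma adjusted p = 1.40e-05). Against HFD, Dok2 and Cbl fell in SZ-A mice by 1.07 and 0.72 on the log2 scale, Grb2 and Shc1 also fell, and Insr was the 1 of 18 genes that rose. Dok2 was also called in SZ-A against NC, at 2.16 (limma adjusted p = 0.00738).

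Of 21 brakes on the pathway, 7 rose and 2 fell in HFD mice (6 and 5 without NC replicate 6). Pid1, whose product restrains insulin signalling in fat cells, rose from 4.78 ± 2.6 FPKM (SD, n = 6) to 17.7 ± 2.70 (SD, n = 7), a log2 fold change of 1.91 (limma adjusted p = 0.00116). Dok3, an adaptor of immune cells, rose by 1.89 (limma adjusted p = 9.98e-05). The falls were those of Ptprf, a receptor phosphatase (-1.56, limma adjusted p = 0.00901), and Cish (-1.04, limma adjusted p = 0.0383), a member of the suppressor of cytokine signalling family. Ptprf was 33.1 FPKM in NC replicate 6 and 2.38 to 14.2 in the other NC mice, and its log2 fold change was -1.22 (limma adjusted p = 0.00842) without NC replicate 6. The 2.38 FPKM of NC replicate 3, the NC mouse with the least Krt18, lay inside the HFD range of 1.44 to 4.48. SZ-A replicate 2, which had Krt18 at 119 FPKM, had 22.5 FPKM of Ptprf. In SZ-A against HFD, 3 of 21 fell and 1 rose. Inpp5d, the SHIP1 phosphatase of blood cells, fell by 1.02 (limma adjusted p = 0.00237), Ptpn1, the phosphatase that removes phosphate from the insulin receptor, fell by 0.79 (limma adjusted p = 0.00483), Pid1 fell by 0.60 (limma adjusted p = 0.00395) and Trib2 rose by 0.57 (limma adjusted p = 0.00719). Pid1 in SZ-A mice, at 11.4 ± 1.84 FPKM (SD, n = 7), did not overlap with HFD.

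Of 16 Akt and mTOR genes, 4 were called in HFD mice, each of them higher, while 4 rose and 3 fell without NC replicate 6. The largest rise was that of Deptor, an inhibitor of mTOR (1.45, limma adjusted p = 0.0103), and Akt1 rose by 0.89 (limma adjusted p = 3.15e-04). Akt1 fell by 0.56 in SZ-A against HFD (limma adjusted p = 0.0095), and Rps6kb1, which encodes the S6 kinase, rose by 0.39 (limma adjusted p = 0.0204). Akt1 stood at 32.0 ± 5.12 FPKM (SD, n = 6) among NC, 59.9 ± 9.76 (SD, n = 7) among HFD and 40.3 ± 7.26 (SD, n = 7) among SZ-A mice. Its group means thus stood in another order than those of Akt2, which were 54.7, 32.9 and 50.7 FPKM.

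Of 20 genes of Glut4 traffic, 4 rose and 2 fell in HFD mice (4 and 3 without NC replicate 6). Sort1, a sorting receptor of Glut4 storage vesicles, fell by 1.25 (limma adjusted p = 3.46e-04), and Vamp2, a vesicle SNARE, fell by 0.96 (limma adjusted p = 9.30e-06). Sort1 was highest in NC replicates 1 and 6 (142 and 153 FPKM), which also had the most Krt18. It was 59.5 FPKM in NC replicate 3, which had the least, still above the highest HFD mouse at 52.1. Vamp2 was 23.3 to 27.2 FPKM among NC, 10.5 to 15.4 among HFD and 15.7 to 22.1 among SZ-A mice, so that the 3 groups did not overlap. SZ-A mice differed from NC mice in Vamp2 by a log2 fold change of -0.41 (limma adjusted p = 0.0666). The largest rises were Dennd4c, an exchange factor for Rab10 (1.30, limma adjusted p = 7.58e-04), and Stxbp3 (Munc18c), which binds the target SNARE syntaxin 4 (1.12, limma adjusted p = 9.90e-06). Against HFD, SZ-A mice had lower Dennd4c and Stxbp3, which fell by 0.87 and 0.65 (limma adjusted p = 0.00223 and 0.00717), and Vamp2 was the 1 of 20 genes that rose (0.55, limma adjusted p = 0.00284).

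Of 14 effectors and transcription factors, 3 fell and 1 rose in HFD mice (7 and 1 without NC replicate 6), and the 4 called in SZ-A against HFD were all higher. Hk2 (hexokinase 2) and Gys1 (glycogen synthase) fell by 1.53 and 1.17 in HFD mice (limma adjusted p = 4.99e-04 and 0.00226), and Foxo3 rose by 0.37 (limma adjusted p = 0.0307). In NC replicate 3, the NC mouse with the least Krt18, Hk2 was 7.99 FPKM, below the highest HFD mouse at 8.66. In SZ-A against HFD the largest rises were Pck1, the enzyme that supplies glycerol for fat storage in fat cells (1.62, limma adjusted p = 0.0179), and Mlxipl, the glucose-responsive factor ChREBP (1.02, limma adjusted p = 0.0144). With the adipocyte marker score as covariate, 0 of these 14 genes were called in SZ-A against HFD by limma (2 at an unadjusted p under 0.05, 0 by voom), and Pck1 stood at 0.45 (limma adjusted p = 0.0798).

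Of 9 other glucose transporters, 2 rose and 3 fell in HFD mice (2 and 4 without NC replicate 6). Slc2a3 spanned 3.52 to 20.6 FPKM among NC, 0.894 to 1.29 among HFD and 1.01 to 9.03 among SZ-A mice, and it fell by 2.39 in HFD against NC (limma adjusted p = 2.44e-05). Its lowest NC value was in NC replicate 3, which also had the least Krt18 of its group (5.85 FPKM). NC replicate 6, with Krt18 at 452 FPKM, had 7.08 FPKM of Slc2a3. The highest SZ-A values, 4.61 and 9.03 FPKM, were in replicates 2 and 7, where Krt18 stood at 119 and 168 FPKM. The part of that epithelial signal in the fall of Slc2a3 was not tested. Slc2a12, which encodes the insulin-responsive Glut12, fell by 0.87 in HFD mice and rose by 0.55 in SZ-A against HFD (limma adjusted p = 0.0254 and 0.044), at a mean of no more than 2.05 FPKM in any group. Slc2a6 and Slc2a9 rose by 0.93 and 0.69 in HFD mice (limma adjusted p = 6.63e-04 and 1.92e-04), and Slc2a9 fell by 0.55 in SZ-A against HFD (limma adjusted p = 0.00234). Slc2a3 and Slc2a8 were lower in SZ-A than NC mice, with log2 fold changes of -1.63 and -0.66 (limma adjusted p = 0.0467 and 0.0441).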

How the data were processed

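Poly(A) RNA from eWAT of 20 mice was sequenced as Illumina paired-end reads. Alignment to GRCm38 was done by the authors in HISAT2, and featureCounts 1.5.0-p3 is listed in the submitters' processing notes. The values deposited by the authors are FPKM for 14776 genes, each above 0 in every mouse, so genes at 0 in any mouse had been left out before deposit by a filter not given in the sources used here. The library kit is listed without a strand setting, so antisense reads may be included.

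Reads were recovered as FPKM times the summed exon length in GENCODE release M21 for GRCm38 (14770 genes found, 6 not). Within 0.01 reads, 95.9% to 96.3% of values under 1000 reads were whole multiples of a single step per mouse, which implied library sizes of 13938405 to 19591891. They served to state depth and as an alternative with voom. The intervals given are those of the fits over mice. Groups came from the labels, 6 NC, 7 HFD and 7 SZ-A, each library taken as 1 mouse, and no 2 mice had identical values.

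The 3 comparisons were fitted with limma 3.58.1 (R 4.3.3) on log2(FPKM + 1) with a variance trend. Only the 2 groups compared entered each fit, genes averaging under 0.1 FPKM in these mice were left out, and p-values were adjusted by Benjamini and Hochberg's method across every gene tested. A gene was called at an adjusted p under 0.05, and the study's rule, which in its methods adds a log2 fold change above 1.5, served as an alternative. For single members, exact two-sided permutation tests were run that used every regrouping of the mice, where 5.83e-04 is the smallest p they can give. The authors had compared groups with DESeq2, which was not used here because the values are FPKM. The steps were tested on simulated data.

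The members, the lists of pathway genes and cell markers, the tests and the alternatives were chosen with earlier results of these data known. Besides the members, the genes named are up to 2 rises and 2 falls of the largest size per list and comparison among called genes, the 5 genes most correlated with Slc2a4 in each of 2 ways, and highly expressed markers or markers that a result turns on. Grb2, Shc1, Grb14, the genes given as not called, Akt1 and Cbl in HFD against NC and Pid1 in SZ-A against HFD were named after their values were seen. A gene that this rule names is not reported here by name and stays in the counts. Alternatives were a pseudocount of 0.1, no filter on low values, a filter at 1 FPKM, all 3 groups in the fit, median-ratio scaling, array quality weights, voom, a replicate block, adipocyte or epididymis marker scores as covariates, and leaving out each mouse. Start regions came from RefSeq (GRCm38.p6). Figures were drawn in matplotlib 3.10.9 under Python 3.11.15.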

Additional observations from a re-analysis of the deposited data

Results flagged for a closer look

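In 4 of the 30 combinations of member and group, a single mouse lay far from the others by Dixon's criterion, which chance alone would pass in about 5% of such groups. Akt2 in NC replicate 6 was 12.5 FPKM, on 1300 reads, against 46.0 to 82.5 FPKM in the other NC mice. Slc2a4 in the same library was 1.24 FPKM, on 63 reads, against 11.0 to 28.8 FPKM. That library also had the low adipocyte marker sum given in the report. Pik3r1 in SZ-A replicate 5 was 4.42 FPKM, on 621 reads, against 10.9 to 20.1 FPKM in the other SZ-A mice, and this library had the largest share of mitochondrial reads. Trib1 in HFD replicate 3 was 4.48 FPKM against 5.42 to 6.13 FPKM in the other HFD mice, a narrow range on 506 to 696 reads.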

How the results depend on the processing

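The members called lower in HFD against NC, 1 with the settings of the report, numbered 4 with array quality weights, 3 with the adipocyte marker score as covariate, 8 with the epididymis marker score, which rests on only Krt18 and Lcn2, and 0 by the study's rule with a log2 fold change above 1.5. They ranged from 1 to 4 when each mouse was left out, with 4 without NC replicate 6. With the epididymis score 1 member, Trib1, was called higher, and Pik3r1 turned from 0.06 to -1.15 (limma adjusted p = 0.00396). That score ran from 2.373 to 10.035 in NC and from 1.027 to 1.834 in HFD mice, without overlap. The fit with it therefore cannot separate the score from the diet. The members called higher in SZ-A against HFD, 1 in the report, numbered 0 with all 3 groups in the fit, 6 with array quality weights, 0 with the replicate block, 0 with the adipocyte score, 2 with the epididymis score and 0 by the study's rule. They ranged from 0 to 3 when each mouse was left out, with 0 without HFD replicate 1 or 5, 2 without HFD replicate 6 or SZ-A replicate 2 and 3 without SZ-A replicate 5. In SZ-A against NC, 2 members were lower with the adipocyte score. Of all genes, 54.3%, 10.7% and 8.59% were called with that score in HFD against NC, SZ-A against HFD and SZ-A against NC. Without NC replicate 6, 45.2% were called in HFD against NC. For the other alternatives here and in the next paragraph the share of all genes is not given. Their counts therefore cannot be read as particular to the members or the pathway.

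Of the pathway genes, 40 were called in HFD against NC, 64 with the epididymis score, under the limit given above, and 11 by the study's rule. In SZ-A against HFD 28 were called, 16 with all 3 groups, 61 with array quality weights, 12 with the adipocyte score and 1 by the study's rule. In SZ-A against NC 7 were called, 15 with all 3 groups, 19 with array quality weights, 2 with the replicate block, 21 with the adipocyte score, 3 with the epididymis score, 3 by the study's rule, and 4 to 9 when each mouse was left out. The cause of these shifts was not tested.

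The labels do not say whether the replicate numbers pair the mice. Same-numbered mice deviated together, with a correlation over 0.1, in 1 of 6, 3 of 7 and 2 of 6 pairs. Other pairs deviated in opposite directions. The correlations ran from -0.296 to 0.308 in HFD against NC, from -0.399 to 0.386 in SZ-A against HFD and from -0.415 to 0.593 in SZ-A against NC. These correlations cannot decide it, since mice can also deviate together in their adipocyte markers. With the replicate block, Insr in SZ-A against HFD kept its log2 fold change of 0.55 at a limma adjusted p of 0.0584. Of 700 recomputed log2 fold changes of members, 667 kept their direction and side of the threshold or passed in neither setting, 27 passed only under the alternative, 5 no longer passed and 1 changed sign. Of those that passed in neither, 71 lay on the other side of 0. Median-ratio scaling moved the median of all genes to -0.04, 0.02 and -0.01. The fewest reads, 22 for Irs1 and 63 for Slc2a4, limit what these members can show in single mice.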
